A study of Mus musculus with 4 samples.

Results

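The genes described here encode 10 enzymes that make serine, glycine, asparagine and the folate-bound carbon units that purine and thymidylate synthesis use. They were chosen by symbol, with no measured value in the rule, though earlier results of these data were known. All 10 (Phgdh, Psat1, Psph, Shmt1, Shmt2, Mthfd1, Mthfd2, Mthfd1l, Aldh1l2 and Asns) were among the 27179 genes of the deposited count table. The samples were group 2 innate lymphoid cells (ILC2s), which lack antigen receptors and secrete type 2 cytokines such as IL-5 and IL-13, sorted from the large intestine of C57BL/6 mice by CD127 and KLRG1 on cells without lineage markers. The methods give an age of 6 to 8 weeks in one section and a wider range in another, and name both sexes in one sentence and only males for C57BL/6J in a later one, so age and sex are not settled here. In both groups the cells were WT and were cultured for 5 days with 10 ng/mL each of IL-33, IL-25, IL-7 and IL-2. They were then given vehicle (2 libraries) or deoxycholic acid (DCA), a bile acid that gut bacteria make, at 100 μM (2 libraries). The treatment lasted 24 hours by the methods and 16 hours by the deposited design text. Sources do not say whether libraries of a group came from separate mice or cultures, so p-values here measure the spread between libraries, which may be technical. ILC2s grown in culture need not match those in the gut.

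Cells make serine from the glycolytic intermediate 3-phosphoglycerate in 3 steps, catalysed by PHGDH, PSAT1 and PSPH. The SHMT enzymes then split serine into glycine and a carbon unit carried by folate, SHMT1 mainly in the cytosol and SHMT2 mainly in mitochondria, and the MTHFD and ALDH1L enzymes interconvert, release or burn that unit. ASNS makes asparagine from aspartate and glutamine. Proliferating lymphocytes are known to use this pathway heavily. Several of its genes, Asns, Phgdh, Psat1, Shmt2, Mthfd2 and Aldh1l2 among them, are textbook targets of ATF4, the transcription factor made when PERK or another kinase phosphorylates eIF2α. The study examined PERK and eIF2α in DCA-treated ILC2s and reported more of their phosphorylated protein forms on immunoblots. The comparison of DCA with vehicle here bears on whether RNA of the pathway's genes differed between the treatments.

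ATF4 binds with C/EBP proteins at a composite element, searched here as TGATGNAA on either strand of the 250 bases before each transcription start in RefSeq (GRCm38.p6). The element is shown because Asns is the classic example of it and because, among the 9 members with a listed promoter, Asns was the only one with a match. Over all 32851 promoters of this length, 3.45% held a match, and among 13 genes of the ATF4 axis (ATF4, its partners, kinases upstream and targets outside the members) there were 2, Chac1 and Nupr1. Capitals mark the match, and each sequence is written in the direction of its gene. The Asns stretch is chr6:7693214-7693243 on the minus strand and its match begins 23 bases before the start. The Chac1 stretch is chr2:119351038-119351067 on the plus strand, and that of Nupr1 is chr7:126625562-126625591 on the minus strand, both with the element on the opposite strand to the gene.
Asns: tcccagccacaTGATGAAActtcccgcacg
Chac1: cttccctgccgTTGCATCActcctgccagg
Nupr1: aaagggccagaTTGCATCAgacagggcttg
A match is a description of the letters and not evidence of binding, and the absence of one from the other promoters concerns this window only.

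Counts added up to between 26564059 and 35838342 in 3 libraries and to 244165712 in DCA replicate 2. Levels are given as counts-per-million (CPM) values after scaling with edgeR's TMM method. Of 12 ILC2 markers, Il5 (7727 to 12334 CPM) and Id2 (2814 to 3105 CPM) were the most abundant and Gata3, the transcription factor that specifies these cells, was between 600 and 840 CPM. Thy1, a surface protein of lymphocytes, was at 0 to 4.24 CPM. In the edgeR fit 3 markers had an unadjusted p under 0.05 (adjusted p = 0.999 each), all without overlap between the treatments. Klrg1, used for the sort, was at 688 and 678 CPM with vehicle, against 463 and 356 CPM with DCA. Il1rl1, which encodes the IL-33 receptor, was at 833 and 877 CPM with vehicle and at 599 and 533 CPM with DCA, and Il2ra, an IL-2 receptor chain, was at 1075 and 1231 CPM, against 1615 and 1585 CPM. The part of these differences in the members' values was not tested. Markers of other cells were low in sum, at 0 to 0.383 CPM for 7 macrophage and monocyte genes, 7.74 to 13.5 CPM for 6 epithelial genes, 11.2 to 26.7 CPM for 6 T cell genes and 0 to 1.49 CPM for 5 ILC3 genes, and most T cell signal came from Cd3g (10.5 to 25.6 CPM). B cell markers summed to 37.8 to 55.2 CPM, nearly all from Cd79b, and mast cell and basophil markers to 159 to 363 CPM, nearly all from Kit.

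With edgeR's quasi-likelihood test, 0 of the 9 members tested were called at an adjusted p under 0.05, as were 0 of all 11184 genes that averaged 1 CPM or more over the libraries (0%). At an unadjusted p under 0.05 there were 0 members, against 478 genes, or 4.27%, in all (2.54% higher and 1.73% lower with DCA). With DESeq2, the tool the methods name, 128 genes had an adjusted p under 0.05 (1.17% of those given one), and none was a member. Of the 9 members, 6 had a negative log2 fold change and 3 a positive one, where 49.3% of all genes tested had a negative one. The median over members was -0.34, against 0.0080 over all genes tested, and the fitted values ran from -0.86 for Mthfd1l to 0.19 for Mthfd2. The adjusted p of each was 0.999, and with 2 libraries against 2 an exact permutation test cannot give a two-sided p below 0.333. Aldh1l2 did not reach 1 CPM and was not tested.

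Levels can be compared between genes only per length of transcript, and for this CPM was divided by the length in kb of the longest coding transcript in GENCODE M21. Phgdh ranked first in every library but DCA replicate 1, where Mthfd2 did, and was at 170 ± 38.9 CPM per kb (SD, n = 2) with vehicle and 127 ± 15.8 CPM per kb (SD, n = 2) with DCA. Shmt2 (125 ± 42.2 CPM per kb with vehicle, SD, n = 2), Psat1 (116 ± 21.1), Mthfd2 (106 ± 4.67) and Asns (91.0 ± 33.8) followed with vehicle, and these neighbours did not differ beyond their SDs. With DCA the order of the top members was Phgdh, Mthfd2 (121 ± 4.03 CPM per kb, SD, n = 2), Asns (102 ± 14.5), Shmt2 (91.8 ± 1.30) and Psat1 (91.7 ± 0.933). Psph (56.2 ± 10.3 with vehicle), Mthfd1 (39.3 ± 11.2) and Shmt1 (29.9 ± 3.44) formed a lower tier in every library, Mthfd1l lay below them at 12.3 ± 3.93 CPM per kb with vehicle, and Aldh1l2 was lowest. The ranks depended in part on the length used. With the union of all exons in place of the longest transcript, Phgdh was first in all 4 libraries, Asns moved from rank 3 to rank 2 in DCA replicate 2, and Psph (19.6 to 26.0 CPM per kb of union) no longer stood above Mthfd1 (22.4 to 34.5) in every library. Between the compartments, RNA of mitochondrial Shmt2 was 3.45, 4.78, 3.37 and 4.13 times that of cytosolic Shmt1 per kb (vehicle replicates 1 and 2, DCA replicates 1 and 2). Mthfd1l, the mitochondrial formyl-tetrahydrofolate synthetase, was below its cytosolic counterpart Mthfd1, at 0.481, 0.202, 0.219 and 0.216 times per kb in the same order.

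**Figure D1:**
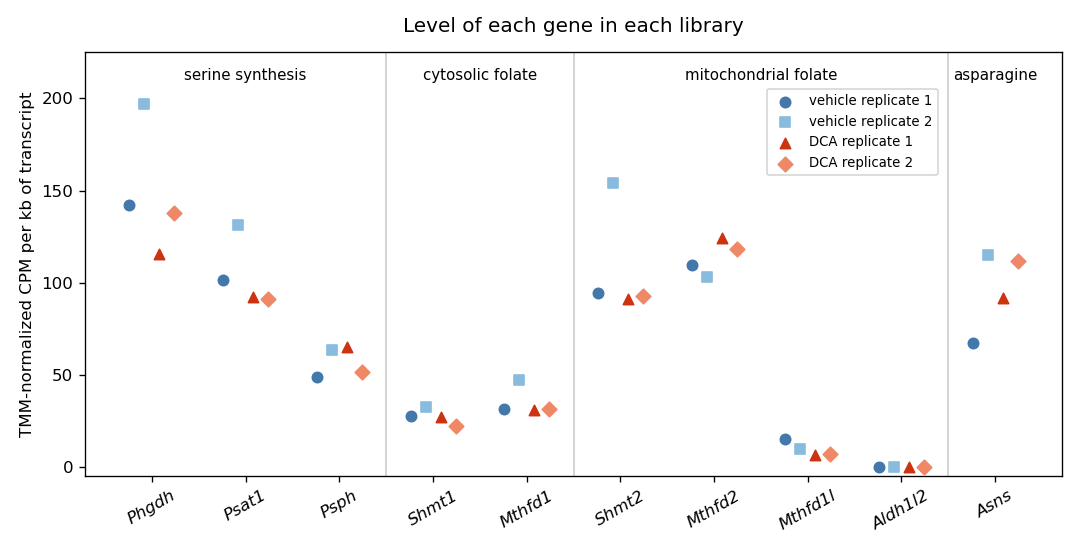
TMM-normalized CPM per kb of the longest coding transcript (vertical axis, linear) for the 10 genes, grouped by role, with 1 point per library. Phgdh, Psat1, Shmt2, Mthfd2 and Asns lay between 67.1 and 197, Mthfd1l between 6.74 and 15.1, and Aldh1l2 at 0 in 3 libraries and 0.164 in DCA replicate 2.

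Of the serine synthesis genes, Phgdh (Entrez gene 236539, chromosome 3 from 98313171 to 98339969 on GRCm38) encodes the dehydrogenase that commits 3-phosphoglycerate to serine. It was at 269 and 373 CPM with vehicle, against 219 and 261 CPM with DCA. Both DCA libraries lay below both vehicle libraries, with DCA replicate 2 just under vehicle replicate 1. Its log2 fold change was -0.42, with a 95% interval from -1.04 to 0.20 (edgeR's quasi-likelihood fit, unadjusted p = 0.150), and it was -0.16 without vehicle replicate 2 and -0.66 without vehicle replicate 1. Psat1 (Entrez gene 107272, chromosome 19 from 15905123 to 15925059), whose product transaminates the next intermediate with glutamate, was at 265 and 343 CPM with vehicle and at 242 and 238 CPM with DCA. The DCA libraries were again below both vehicle libraries and nearly equal to each other. The log2 fold change of Psat1 was -0.34 (interval -0.90 to 0.22), with an unadjusted p of 0.187 in the same edgeR fit, and -0.14 and -0.54 with vehicle replicate 2 or 1 left out. Psph (Entrez gene 100678, chromosome 5 from 129765558 to 129787443), the phosphatase of the last step, was at 84.7 and 110 CPM with vehicle, against 113 and 89.6 CPM with DCA, so the treatments overlapped. Its log2 fold change was 0.054 (interval -0.64 to 0.75), and -0.15 without vehicle replicate 1. Exons of Psph overlap those of Cct6a on the opposite strand in GENCODE M21. Cct6a had 12558 and 8905 raw counts with vehicle, against 12022 and 89324 with DCA, not scaled for the greater depth of DCA replicate 2. The SMART-Seq HT and Nextera XT kits used for the libraries do not keep strand, so reads from such overlapping exons cannot be told apart.

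In the cytosolic folate branch, Shmt1 (Entrez gene 20425, chromosome 11 from 60788897 to 60811265) was at 78.4 and 92.3 CPM with vehicle and at 77.0 and 64.2 CPM with DCA. The treatments did not overlap, but DCA replicate 1 and vehicle replicate 1 were almost equal. The log2 fold change was -0.27 (interval -0.96 to 0.42), and -0.15 and -0.41 with vehicle replicate 2 or 1 left out. Exons of Shmt1 overlap those of Smcr8 on the opposite strand. Smcr8 had 129 and 145 raw counts with vehicle, against 240 and 3906 with DCA, not scaled for the greater depth of DCA replicate 2. DCA replicate 1 had the higher Smcr8 count although it held fewer counts in all than vehicle replicate 1 (32102232 against 35838342). The part of Smcr8 in the Shmt1 count was not tested. Mthfd1 (Entrez gene 108156, chromosome 12 from 76254406 to 76319820), which carries dehydrogenase, cyclohydrolase and synthetase activities in a single protein, was at 102 and 153 CPM with vehicle, against 99.7 and 102 CPM with DCA. Vehicle replicate 2 stood apart from the other 3 libraries, and the log2 fold change of -0.34 (interval -1.05 to 0.37) became -0.0095 without it and -0.63 without vehicle replicate 1. Its exons overlap those of Gm47525, which was not analysed here.

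Of the mitochondrial genes, Shmt2 (Entrez gene 108037, chromosome 10 from 127517123 to 127522444) was at 217 and 353 CPM with vehicle and at 208 and 212 CPM with DCA. As with Mthfd1, the 3 other libraries were close together and vehicle replicate 2 was high. The log2 fold change was -0.44 (interval -1.14 to 0.26), and it was -0.042 without vehicle replicate 2 and -0.78 without vehicle replicate 1. Ndufa4l2, whose exons overlap those of Shmt2 on the opposite strand, had 0 counts in all 4 libraries. Mthfd2 (Entrez gene 17768, chromosome 6 from 83305704 to 83326011), the dehydrogenase and cyclohydrolase that is high in embryonic and proliferating cells, was at 228 and 215 CPM with vehicle, against 259 and 247 CPM with DCA. It was the only member with both DCA libraries above both vehicle libraries, and its replicates were close together. The log2 fold change was 0.19 (interval -0.32 to 0.70), an interval that lies below a 2-fold rise.

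Mthfd1l (Entrez gene 270685, chromosome 10 from 3972892 to 4167081), whose product releases formate for export to the cytosol, was at 55.6 and 35.1 CPM with vehicle and at 24.9 and 25.0 CPM with DCA. Both DCA libraries were below both vehicle libraries, which differed from each other. Its log2 fold change of -0.86 (interval -1.85 to 0.13) was the largest in size among the members, and its unadjusted p of 0.0772 in edgeR's quasi-likelihood test the smallest. It was -1.15 with vehicle replicate 2 left out and -0.52 with vehicle replicate 1 left out.

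Aldh1l2 (Entrez gene 216188, chromosome 10 from 83487447 to 83534146), the mitochondrial enzyme that oxidises formyl-tetrahydrofolate, had 0 counts in both vehicle libraries and in DCA replicate 1. DCA replicate 2 had 237 counts, or 0.986 CPM, with an exact Poisson 95% interval from 0.864 to 1.12 CPM that covers counting error only. With a limit of 3 counts for a 0, the gene could have been at up to 0.0821 and 0.115 CPM in the vehicle libraries and 0.0929 CPM in DCA replicate 1. The 2 DCA libraries thus differed from each other by more than counting error, and 33 counts were left when DCA replicate 2 was thinned at random to 31503313 counts in all. Exons of Aldh1l2 overlap those of D10Wsu102e on the opposite strand, which had 629 to 940 counts in the 3 libraries without Aldh1l2 counts and 6494 in DCA replicate 2. These are raw counts, and DCA replicate 2 held 244165712 counts in all, against 26564059 to 35838342 in the other libraries. They therefore do not show a rise of D10Wsu102e in DCA replicate 2. The part of that gene in the Aldh1l2 count was not tested.

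Asns (Entrez gene 27053, chromosome 6 from 7675165 to 7693209), the member with the composite element printed above, was at 135 and 232 CPM with vehicle, against 184 and 226 CPM with DCA. The 2 vehicle libraries were the lowest and the highest of the 4, with both DCA libraries between them. Its log2 fold change was 0.16 (interval -0.61 to 0.93), with an unadjusted p of 0.627 in edgeR's quasi-likelihood test. The direction depended on which vehicle library was kept, with 0.60 without vehicle replicate 2 and -0.20 without vehicle replicate 1.

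**Figure D2:**
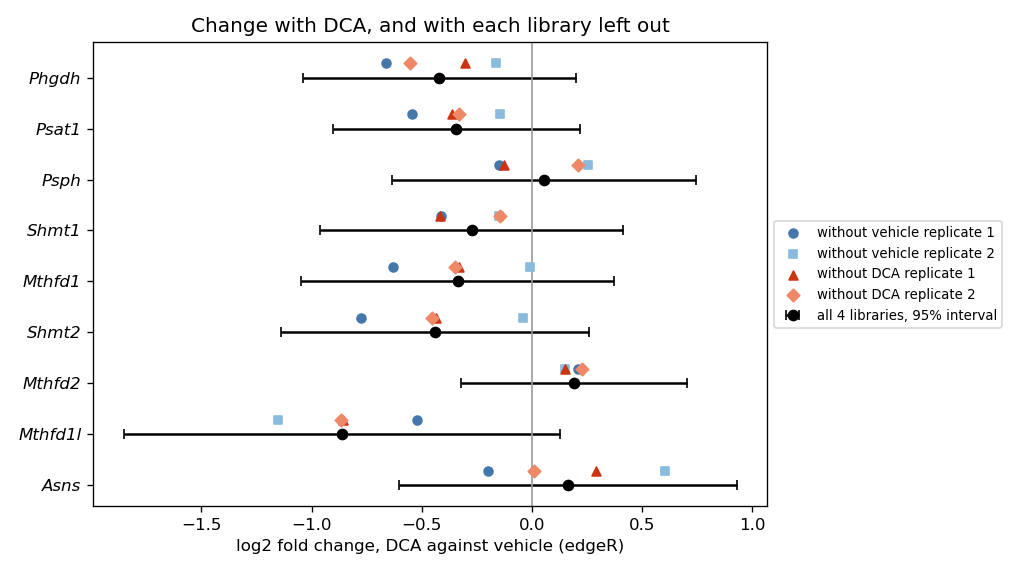
Log2 fold change of DCA against vehicle for the 9 tested genes (black points, edgeR, bars are 95% intervals) and the value with each library left out (coloured points). All 9 intervals include 0, and leaving out vehicle replicate 2 moved Shmt2 to -0.042 and Mthfd1 to -0.0095.

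Vehicle replicate 2 was above vehicle replicate 1 for 7 of the 9 members, by a median factor of 1.30, where 47.9% of all genes tested were higher in it. DCA replicate 2 was above DCA replicate 1 for 5 of 9 (51.7% of all genes tested), by a median factor of 1.01. For 6 of the 9 members the gap between the vehicle libraries, on the log2 scale, was larger than the fitted change with DCA. The share over all genes was not computed for this count, so it does not set the members apart. Both DCA libraries were below both vehicle libraries for 5 members and above for 1, and over all genes tested the treatments did not overlap for 33.3% (14.7% below and 18.6% above). The counts of the 9 members summed to 1435 and 1906 CPM with vehicle and at 1426 and 1465 CPM with DCA (1670 ± 333 against 1445 ± 27.7 CPM, SD, n = 2 each, two-sided exact permutation test, p = 0.667). The median log2 fold change of the members, -0.34, was -0.042 without vehicle replicate 2 and -0.52 without vehicle replicate 1.

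The same order of libraries was found in the purine synthesis list described below and in a list of 12 cell cycle genes. The cell cycle list had summed levels of 3605 and 5287 CPM with vehicle, against 3524 and 3795 CPM with DCA. In that list 11 of 12 genes were higher in vehicle replicate 2 than in vehicle replicate 1, among them Mki67 (123 and 431 CPM), a marker of dividing cells. Its 2 most abundant genes, Rrm2, which makes deoxynucleotides, and Pcna, the replication clamp, had log2 fold changes of -0.34 and -0.21. All 12 had a negative log2 fold change, with a median of -0.24, and none had an unadjusted p under 0.05. Summed over members, the level was 0.398 and 0.361 times that of the cell cycle list with vehicle and 0.405 and 0.386 times with DCA. The part of proliferation in the members' values was not tested. In such bulk samples, fewer cells of a kind and less RNA per cell cannot be told apart.

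**Figure D3:**
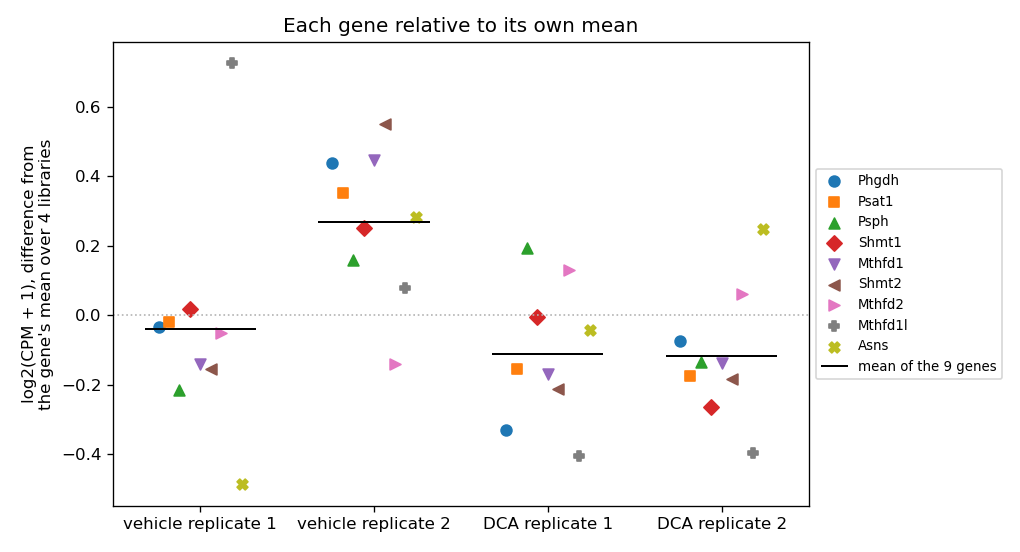
Log2(CPM + 1) of the 9 tested genes in each library, as the difference from each gene's mean over the 4 libraries (points), with the mean of the 9 genes (black lines). The mean was 0.268 in vehicle replicate 2 and between -0.118 and -0.040 in the other libraries, while Asns was at -0.49 and Mthfd1l at 0.72 in vehicle replicate 1.

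Ratios of counts between 2 genes of one library do not depend on how libraries are scaled to each other. Of the 36 pairs that the 9 members form, 18 (50%) had ratios that did not overlap between the treatments, against 33.3% of 31019626 pairs formed by the 7877 genes that had counts in each library and averaged 10 CPM or more. The pairs share genes and the same 4 libraries and are not independent. Phgdh, Psat1 and Shmt2 kept similar proportions to each other, with 0.987 and 0.920 counts of Psat1 per count of Phgdh with vehicle and 1.11 and 0.912 with DCA. By contrast, Asns had 0.503 and 0.621 counts per Phgdh count with vehicle and 0.844 and 0.865 with DCA, a mean log2 difference of 0.61, and 0.46 to 0.76 with any library left out. Relative to Shmt2 it was at 0.625 and 0.655 with vehicle and 0.886 and 1.06 with DCA. Asns was higher in each DCA library than in either vehicle library relative to 5 of the 8 other members, and Mthfd2 and Psph were so relative to 6 of 8 each. The widest separation was that of Mthfd2 over Mthfd1l, with 4.11 and 6.11 counts per count with vehicle and 10.4 and 9.87 with DCA (mean log2 difference 1.02, and 0.73 to 1.30 with any library left out). These pairs were singled out after their values were seen and carry no test. A pair whose ratios do not overlap keeps its direction whichever library is left out, so the ranges given describe size only.

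**Figure D4:**
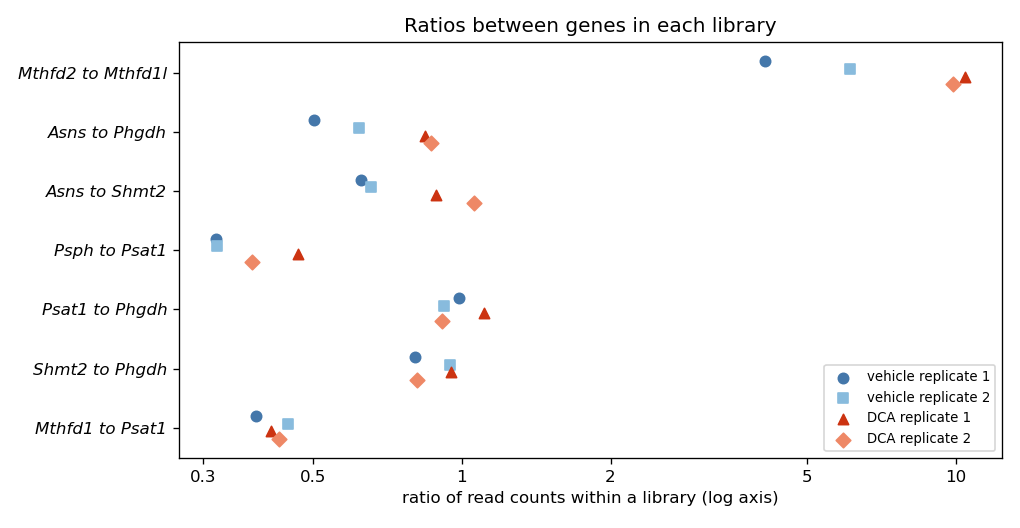
Ratio of read counts of 2 genes within each library (horizontal log axis, 1 point per library) for 7 of the 36 pairs, picked after their values were seen. The treatments are separate in the 4 upper pairs (Asns to Phgdh 0.503 and 0.621 against 0.844 and 0.865) and overlap in the 3 lower ones.

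Further genes of folate and glycine metabolism had a list median near that of all genes. Of 23 listed, 16 were tested, 9 had a positive and 7 a negative log2 fold change, and the median was 0.034. Slc25a32 (Entrez gene 69906, chromosome 15 from 39091230 to 39112720), the carrier that takes folate into mitochondria, was the only gene of the list with an unadjusted p under 0.05. It was at 39.6 and 37.6 CPM with vehicle and at 20.5 and 15.5 CPM with DCA, so that the treatments were apart by more than their own spread. Its log2 fold change was -1.10 (interval -2.12 to -0.081, unadjusted p = 0.0384, adjusted p = 0.999, edgeR's quasi-likelihood test). Tyms, the thymidylate synthase that consumes methylene-tetrahydrofolate, was at 204 and 353 CPM with vehicle, against 254 and 314 CPM with DCA, and had a log2 fold change of 0.028. Dld, the dehydrogenase subunit that the glycine cleavage system shares with other complexes, was at 145 and 163 CPM with vehicle and at 163 and 172 CPM with DCA.

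Purine synthesis takes up formyl groups that the folate enzymes deliver. Of 12 genes tested in that list, 9 had a negative log2 fold change, the median was -0.10, and 1 had an unadjusted p under 0.05. This was Adss (Entrez gene 11566, chromosome 1 from 177763176 to 177796695), the first enzyme from IMP to AMP, at 107 and 116 CPM with vehicle, against 53.1 and 70.1 CPM with DCA (log2 fold change -0.85, interval -1.55 to -0.16, unadjusted p = 0.0231, adjusted p = 0.999, edgeR's quasi-likelihood test). The trunk enzymes Paics (227 and 321 CPM with vehicle, 276 and 248 CPM with DCA) and Adsl overlapped between treatments. The 13 purine genes in the count table summed to 1409 and 1878 CPM with vehicle, against 1407 and 1420 CPM with DCA. Of the 12 tested, 9 were higher in vehicle replicate 2 than in vehicle replicate 1 (47.9% of all genes tested). In the methionine cycle and transsulfuration, 0 of 9 genes tested had an unadjusted p under 0.05, and the median was 0.048. Its most abundant members were Mat2a, which makes S-adenosylmethionine (log2 fold change -0.17), and Ahcy (-0.13). Among 13 genes tested for aspartate, asparagine, glutamine and proline metabolism there were also 0, with a median of 0.21. Got1, a cytosolic enzyme of aspartate metabolism, was at 84.4 and 92.6 CPM with vehicle and at 153 and 110 CPM with DCA (log2 fold change 0.57, interval -0.11 to 1.25). Both DCA libraries of Got1 were above both vehicle libraries, at an unadjusted p of 0.0885 in edgeR's quasi-likelihood test. Got2 went the other way, at 92.3 and 62.7 CPM with vehicle and at 45.3 and 59.7 CPM with DCA. Its log2 fold change was -0.56 (interval -1.39 to 0.27). Glud1, the most abundant of that list, had a log2 fold change of -0.29.

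Genes that control the pathway were read in the same fit. Atf4 itself was at 60.4 and 80.9 CPM with vehicle, against 51.4 and 74.9 CPM with DCA, with a log2 fold change of -0.16 (interval -0.99 to 0.66). Its activity depends on translation, which RNA counts do not measure. Among 11 genes tested of the ATF4 axis, 6 had a positive and 5 a negative log2 fold change, with a list median of 0.57. The median gene was Ddit4, with an interval from -4.28 to 5.43. Both DCA libraries lay above both vehicle libraries for 4 genes and below for 4, against 18.6% and 14.7% of all genes tested. At an unadjusted p under 0.05, 3 were higher with DCA and 1 was lower, against 2.54% and 1.73% of all genes tested. The first of the higher ones was Ddit3, which encodes CHOP, at 8.97 and 9.90 CPM with vehicle, against 25.2 and 43.7 CPM with DCA (log2 fold change 1.87, interval 0.59 to 3.15). Chac1, a glutathione-degrading enzyme, was at 0.383 and 0 CPM with vehicle (14 and 0 counts) and at 6.44 and 13.1 CPM with DCA. Sesn2, a leucine sensor of mTORC1, was at 0.410 and 0 CPM with vehicle (15 and 0 counts), against 16.1 and 4.21 CPM with DCA, so that its DCA libraries differed widely. The lower one was Eif2ak3, which encodes PERK, at 14.0 and 30.8 CPM with vehicle and at 4.21 and 4.75 CPM with DCA (log2 fold change -2.32, interval -4.04 to -0.61, unadjusted p = 0.0159, edgeR's quasi-likelihood test). Eif2ak3 RNA does not measure the amount or the phosphorylation of PERK protein. None of the 4 genes at an unadjusted p under 0.05 passed adjustment (each 0.999 in the same test). Members that are ATF4 targets gave other values in the same libraries, with log2 fold changes of 0.16 for Asns, 0.19 for Mthfd2, -0.34 for Psat1, -0.42 for Phgdh and -0.44 for Shmt2. The axis list itself went both ways, with -0.76 for Ppp1r15a, -0.62 for Eif2ak4, -0.56 for Cebpg and 2.85 for Trib3. No test of the difference between these members and the higher genes was made. Nupr1, the most abundant gene of the axis list, was at 282 and 181 CPM with vehicle, against 234 and 480 CPM with DCA and overlapped between treatments. In a list for MYC, a regulator of serine and folate genes in growing cells, 0 of 8 genes had an unadjusted p under 0.05. Of these genes, 3 had a positive and 5 a negative log2 fold change, and the list median was -0.20. Myc itself was at 193 and 143 CPM with vehicle, against 258 and 181 CPM with DCA, and overlapped between treatments (log2 fold change 0.38, interval -0.31 to 1.07). The most abundant genes of the list were the nucleolar targets Npm1 (log2 fold change -0.53) and Ncl (-0.20).

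**Figure D5:**
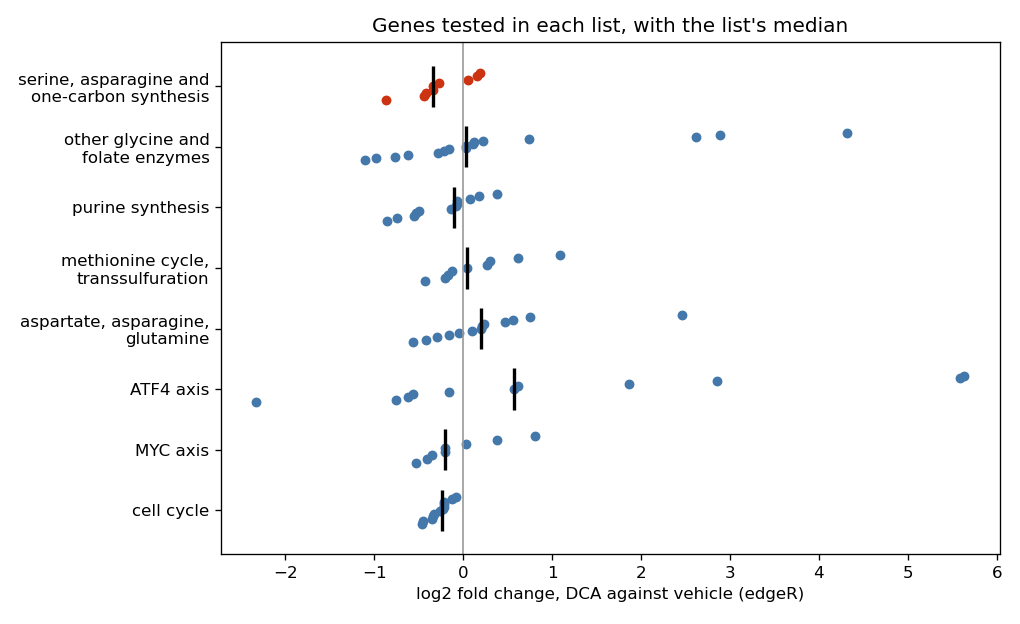
Log2 fold change of DCA against vehicle (edgeR) for each gene tested in 8 lists (points) and the median of each list (black bars). The members' median was -0.34 and that of the cell cycle list -0.24, and the ATF4 axis had the widest range, with Eif2ak3 lowest at -2.32 and Chac1 highest, a fitted value that depends on the prior count since its vehicle counts were 14 and 0.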

How the data were processed

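RNA-Seq of cultured large intestinal ILC2s (2 vehicle and 2 DCA libraries) was re-analysed. Per the labels and the study's methods, the authors trimmed and filtered reads (Cutadapt 1.9) before alignment to the mm10 genome (HISAT2 2.2.1), and tested genes with DESeq2. The counting tool and annotation are not given in the sources used here. The deposited values are whole-number counts per gene (total 26564059 to 244165712 per library), although the table is named for FPKM, and 1275 of 27179 rows without a symbol were kept by identifier. Genes averaging 1 CPM or more were tested with edgeR 4.0.16 (TMM, quasi-likelihood, two-sided, Benjamini-Hochberg adjustment over 11184 genes) in R 4.3.3, and intervals come from the same fit. The test was run on simulated counts with less spread between libraries than the fit found here (common dispersion 0.51). That run therefore does not show how many real changes the test would miss in these data. The members and lists were chosen with earlier results of these data known. Besides the members, genes named are those of the 7 pathway lists with an unadjusted p under 0.05 and no overlap between treatments, the 2 most abundant of each list, and the 5 with the nearest profile. Mki67, Myc, Got2, Ddit4, Ppp1r15a, Eif2ak4, Cebpg, Trib3 and the genes named from marker lists, which the rule does not cover, were added after values were seen. Positions are from RefSeq (GRCm38.p6, the mm10 assembly), in which 25275 identifiers matched, and lengths from GENCODE M21. Alternatives were other scalings and filters, DESeq2 1.42.0, limma 3.58.1 on log2(CPM + 1) and log2(CPM + 0.1), the replicate block, thinning DCA replicate 2, and leaving out each library. For ratios between genes, leaving out each library was chosen after seeing the data.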

Additional observations from a re-analysis of the deposited data

How the results depend on the processing

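In the 9 alternatives that kept all 4 libraries, each of the 9 members kept its direction and none had an adjusted p under 0.05. Members at an unadjusted p under 0.05 numbered 0 in each of these, and their median log2 fold change ranged from -0.37 to -0.31. The number of all genes called, 0 at first, was 36 with no filter on low counts (17706 genes tested) and 128 with DESeq2. The cause was not tested. With 1 library left out, the remaining library of that treatment is assumed to vary like the other pair. Genes called then numbered 0 to 20, the 20 without vehicle replicate 1. Members at an unadjusted p under 0.05 numbered 0 to 2, with 2 without vehicle replicate 1 (Phgdh and Shmt2) and 1 without vehicle replicate 2 (Mthfd1l), and the median log2 fold change ranged from -0.52 to -0.042. Without vehicle replicate 1 the log2 fold change reversed to -0.15 for Psph and -0.20 for Asns, and without DCA replicate 1 it was -0.13 for Psph. Over the libraries left out, Psph ranged from -0.15 to 0.26 and Asns from -0.20 to 0.60. The labels do not say whether libraries of one replicate number belong together. Across genes the deviations from the treatment means correlated at 0.0197 between libraries of one number. With 2 libraries per treatment this does not settle whether they share an origin. With the replicate block 0 genes were called, 450 had an unadjusted p under 0.05, and the members' median was -0.31. Other scalings moved the median of all genes by -0.028 and -0.010. The depth of the 3 shallower libraries limits Aldh1l2, where a 0 allows up to 0.115 CPM.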

Other observations

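Among 7896 genes outside the members with a mean of at least 10 CPM, those whose log2(CPM + 1), centred over the 4 libraries, lay nearest to the mean profile of the 9 tested members were Dtymk (Euclidean distance 0.0343), Elmo2 (0.0431), Ddx39a (0.0444), Usp5 (0.0537) and Ncaph (0.0551). Dtymk encodes thymidylate kinase and Ncaph a condensin subunit. The members themselves lay at 0.111 (Psat1) to 0.886 (Mthfd1l) from their own mean, with Asns at 0.581 and Mthfd2 at 0.507. The profile is that of a higher value in vehicle replicate 2 (0.268) than in the other libraries, and with 4 libraries it is a description.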
